A study of Mus musculus with 12 samples.

Results

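The SLC25 family consists of the mitochondrial carriers, and its messenger RNAs were followed here in injured mouse kidneys. Members were the protein-coding genes whose Ensembl identifier maps to a symbol made of Slc25a and a number. There were 46 of them in both expression tables, out of 32199 listed genes (PAD4 set) and 31719 (IL-33 set). The annotation holds 47 such genes, and Slc25a54 is the one not listed in either table. The pseudogene Slc25a5-ps is not protein-coding and was left out. Its level was at most 0.260 FPKM in any library.

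The kidneys came from male mice aged 8 weeks with contrast-induced acute kidney injury. Every animal had lost 1 kidney, recovered for 3 weeks, gone 24 h without water, and received intraperitoneal furosemide 20 min before iodixanol was injected into the tail vein. The remaining kidney was taken 24 h after the contrast agent. In the first set, 3 wild-type C57BL/6 mice were compared with 3 Padi4 knockout mice (PAD4 knockout; Padi4 encodes the enzyme that citrullinates histones in neutrophils). In the second set, 3 other wild-type C57BL/6 mice were compared with 3 Il33 knockout mice (interleukin 33 is a nuclear alarmin). The sets are batch 1 and batch 2 in the labels, each with its own table, so each knockout was compared with the wild type of its own table only. All 12 animals received the contrast agent, so no value here compares an injured with an uninjured kidney. The labels give no promoter, Cre driver or allele for either knockout, and p-values measure the spread between these animals. Poly(A) RNA of whole kidney tissue was sequenced from strand-specific libraries, and levels are in FPKM, fragments per kilobase of transcript, scaled to the fragments mapped.

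Carriers of this family span the inner mitochondrial membrane with a fold built from repeats and exchange metabolites, nucleotides, cofactors and ions between cytosol and matrix. They are made in the cytosol and inserted by the TIM22 import route. Proximal tubule cells of the kidney cortex and cells of the thick ascending limb are rich in mitochondria and depend on ADP, phosphate, dicarboxylate and acylcarnitine exchange to power reabsorption. In bulk tissue, fewer cells of a type and less RNA per cell cannot be told apart.

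The libraries differed in ways that move with the groups. Transcripts of the mitochondrial genome took 52.0% to 60.0% of the FPKM sum in the PAD4 set and 24.1% to 29.2% in the IL-33 set. In the PAD4 set, Padi4 read 0.704, 1.06 and 1.67 FPKM in wild-type kidneys, against 0.217, 0.497 and 0.187 in the knockouts. Each knockout value lay below 0.5 FPKM, the mean a gene needed over the 6 libraries to be tested. Padi4 passed this filter only through wild type, so its levels are given as a description. In the IL-33 set, Il33 was 1.715, 1.13 and 3.64 FPKM in wild type and 1.14, 0.616 and 1.02 in the libraries labelled IL-33 knockout. This change missed the threshold (log2 change -0.65 ± 0.28 SE, limma adjusted p = 0.0990). Il33 also fell in the PAD4 set, from 3.57, 5.29 and 3.28 FPKM in wild type to 0.889, 1.58 and 1.28 in PAD4 knockout (-1.16 ± 0.23 SE, limma adjusted p = 0.00209). The sources used here do not give the deleted part of either gene, and these levels check the labels only in part. All 13 colon markers tested, all 8 lung markers, 6 of 7 smooth muscle markers and 5 of 7 leukocyte markers fell in the PAD4 knockout libraries, while 9 of 11 proximal tubule markers rose. Of all genes tested, 8.79% were called lower and 8.89% higher there. Among these markers Cldn18, Adgre1 and Itgam passed the filter only through wild type (knockout means 0.232, 0.463 and 0.432 FPKM). The falls of these genes are given as a description. The summed colon markers were 424.7 to 650.9 FPKM in wild type and 122.3 to 234.8 in PAD4 knockout. The summed lung markers were 295.0 to 842.3 and 42.5 to 207.1 FPKM. The summed leukocyte markers were 89.1 to 266.7 and 30.6 to 88.2 FPKM, and the summed proximal tubule markers were 4896 to 8155 and 9878 to 25150 FPKM. In the IL-33 set 10 of the 13 colon markers and 4 of the 8 lung markers were listed, so the sums are not compared between the sets. Within the IL-33 set the sums also moved with the groups. The colon markers summed to 20.4 to 41.5 FPKM in wild type and 5.80 to 8.00 in the libraries labelled IL-33 knockout, and the lung markers to 1.33 to 4.04 and 0.427 to 0.683. Most of the colon sum was Lgals4, at 18.8, 39.2 and 20.5 FPKM against 3.26, 4.02 and 3.91 (-2.45 ± 0.25 SE, limma adjusted p = 3.63e-04). Of these markers, Tff3 and Sftpb were at 0 in all 3 wild-type libraries, and Tff3 and Slc26a3 in all 3 libraries labelled IL-33 knockout. There, 9 of 12 proximal tubule markers rose and 1 fell, and 4 of 6 leukocyte markers rose. Of all genes tested in that set, 22.2% were called higher and 16.8% lower. Adgre1, a leukocyte marker, passed the filter there only through the labelled knockout libraries (wild-type mean 0.160 FPKM). Of the 5 thick ascending limb markers, 4 rose and 0 fell there and 2 rose and 0 fell in PAD4 knockout. Their sums were 1485 to 2165 FPKM in wild type and 2707 to 3617 in the libraries labelled IL-33 knockout, and in the PAD4 set they overlapped, at 53.4 to 169.1 and 92.3 to 561.6 FPKM. In the IL-33 set the summed proximal tubule markers overlapped between the groups, at 12350 to 16850 FPKM in wild type and 10740 to 13540 in the libraries labelled IL-33 knockout. Most of the proximal tubule sum in both sets was Kap. In the IL-33 set Kap measured 14020, 15660 and 11460 FPKM in wild type and 10290, 10210 and 7985 in the labelled knockout. It was the 1 tubule marker called lower there (-0.53 ± 0.17 SE, limma adjusted p = 0.0429). The medians of the proximal tubule markers did not overlap, at 45.0 to 69.3 and 123.9 to 157.5 FPKM. The summed leukocyte markers were 7.48 to 17.1 and 38.1 to 45.0 FPKM. The part of these shifts in the results on the carriers was not tested beyond the covariate fit given below.

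**Figure D1:**
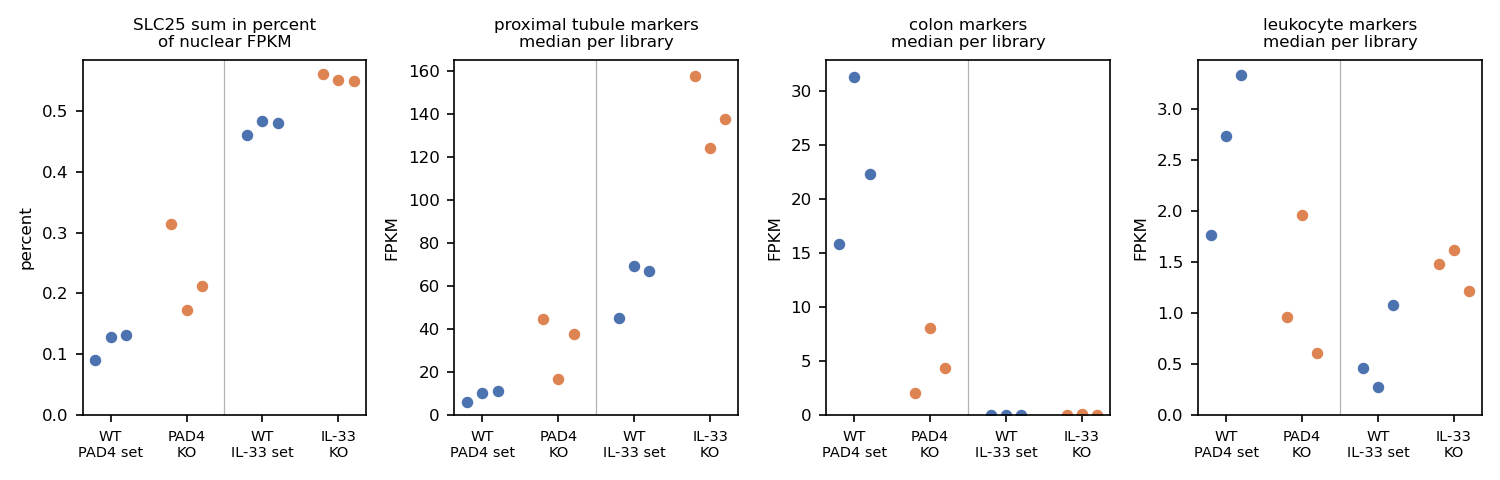
Summed FPKM of the 46 SLC25 members as a percent of the FPKM of nuclear genes, and the median FPKM of 3 marker lists, per library (blue, wild type; orange, knockout; 1 point per library). In the PAD4 set the knockout libraries lie above wild type for the carriers and the proximal tubule markers and below for the colon markers, with PAD4 knockout library 2 nearest to wild type in all 3; the median colon marker is near 0 in the IL-33 set.

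In the PAD4 knockout kidneys, 10 members rose and 2 fell of the 39 tested, a share of 30.8%, where 17.7% of all 13986 genes tested were called (8.89% higher and 8.79% lower). On the log2(FPKM + 1) scale the largest rises were in the ADP/ATP carriers Slc25a4 and Slc25a5 and the phosphate carrier Slc25a3. As a ratio of mean FPKM, Slc25a42 (3.26) lay above Slc25a3 (3.16), and the low member Slc25a21 (4.57) above Slc25a4 (4.30). Slc25a21 is counted among the 10, but it passed the filter on low levels only through its knockout libraries. The 2 that fell were Slc25a24, an ATP-Mg/phosphate carrier, and Slc25a22, a glutamate carrier. A gene was tested where its mean over the 6 libraries was at least 0.5 FPKM, and called at an adjusted p below 0.05 (limma on log2(FPKM + 1), Benjamini-Hochberg over all genes tested). The wild-type and knockout libraries did not overlap for 16 of the 39 members, or 41.0%, against 33.0% of all genes. The median change was 0.305 over the members and 0.016 over all genes tested.

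In the libraries labelled IL-33 knockout, 12 members rose and 10 fell of the 40 tested, a share of 55.0%, where 39.1% of all 14513 genes were called (22.2% higher and 16.8% lower). Slc25a22 and Slc25a25, another ATP-Mg/phosphate carrier, fell furthest. Slc25a11, the oxoglutarate/malate carrier, was among the members that rose most. The groups did not overlap for 28 of 40 members, or 70.0%, against 54.6% of all genes. The median change was 0.12 over the members and 0.044 over all genes tested.

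Read over both comparisons, 5 members were called higher in both, among them Slc25a4 and Slc25a5, and 2 fell in both (Slc25a22 and Slc25a24). Single calls covered 17.7% of all genes tested in the PAD4 set and 39.1% in the IL-33 set. The share of all genes with each joint pattern was not counted. Slc25a35 is also among the 5, but its PAD4 groups overlapped and that call was kept in 4 of 16 alternatives. The 5 include Slc25a21, whose PAD4 call supports no rise because of that filter. Slc25a10 and Slc25a25 rose in PAD4 knockout and fell in the libraries labelled IL-33 knockout. No member was called lower in the first and higher in the second. A further 14 members were called in neither. The sets share no samples.

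**Figure D2:**
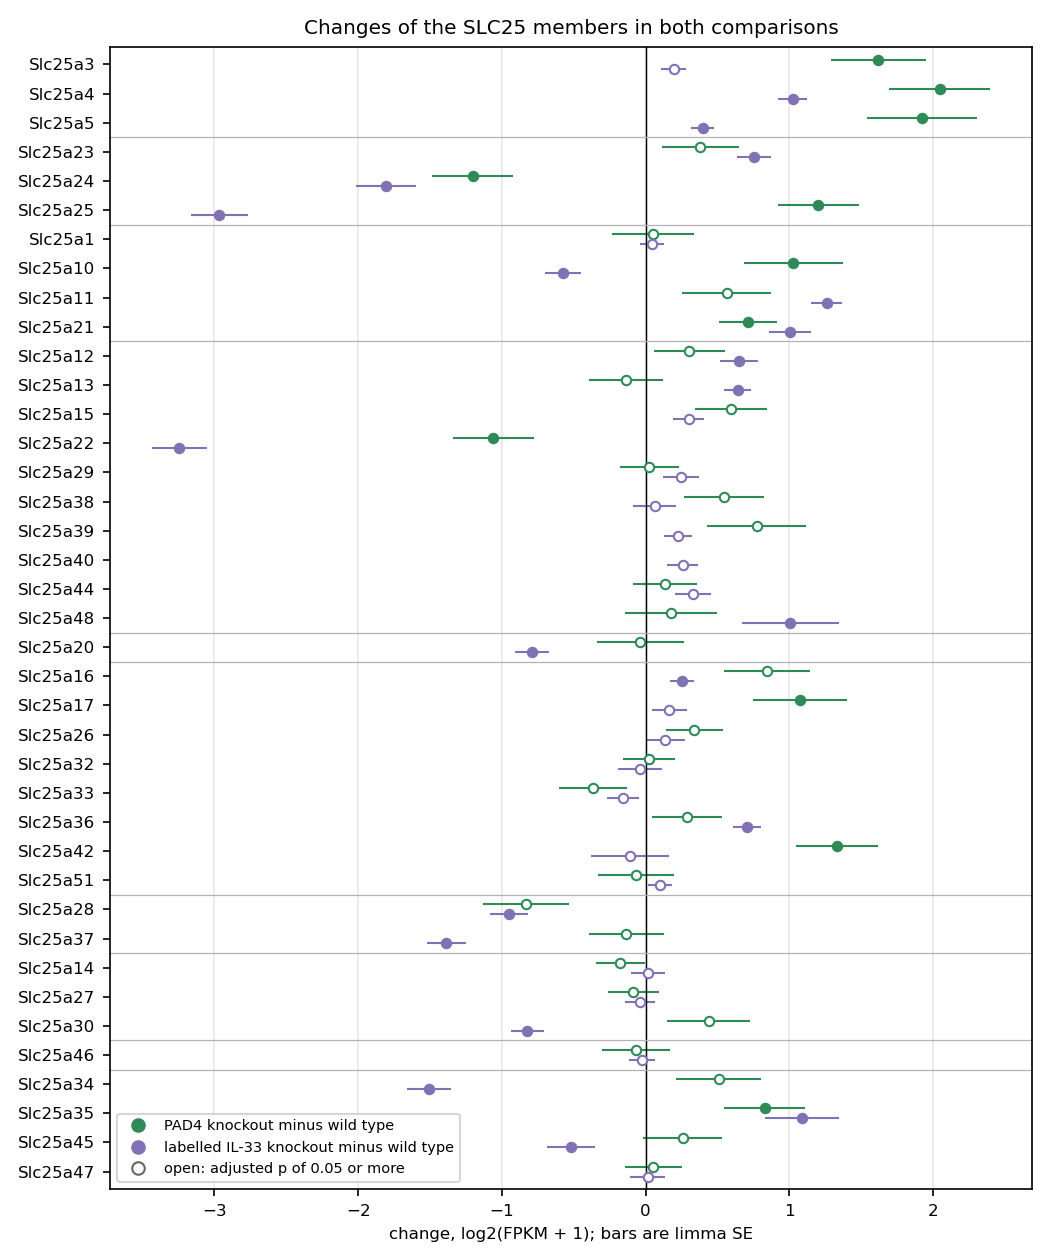
Change of the tested members (1 left out) in log2(FPKM + 1), knockout minus wild type, in the PAD4 set (green) and the IL-33 set (purple); bars are limma standard errors, filled points have an adjusted p below 0.05, and grey lines separate the roles. Slc25a25 is the member whose points lie farthest apart, at 1.20 and -2.97.

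Promoter windows are shown for 5 members chosen after their values were seen, so that their letters can be set beside the levels. They are RefSeq windows of 300 bases on GRCm38.p6, from 250 bases before to 50 after an annotated start, printed 5′ to 3′ on the gene's strand. Slc25a25 has 3 annotated starts, and the third of its windows and the window of Slc25a36 hold a cyclic AMP response element. Slc25a4, Slc25a5 and Slc25a3 are the ADP/ATP and phosphate carriers. Capitals mark a cyclic AMP response element (TGACGTCA) or a CCAAT box (CCAAT, printed as ATTGG where it lies on the other strand).
Slc25a25, chr2:32451421-32451720, minus strand: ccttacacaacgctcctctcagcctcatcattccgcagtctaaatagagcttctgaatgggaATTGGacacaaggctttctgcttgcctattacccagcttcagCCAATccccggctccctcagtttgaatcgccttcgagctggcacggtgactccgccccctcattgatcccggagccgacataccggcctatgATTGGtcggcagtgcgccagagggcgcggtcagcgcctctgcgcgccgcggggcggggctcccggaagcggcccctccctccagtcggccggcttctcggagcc
Slc25a25, chr2:32431102-32431401, minus strand: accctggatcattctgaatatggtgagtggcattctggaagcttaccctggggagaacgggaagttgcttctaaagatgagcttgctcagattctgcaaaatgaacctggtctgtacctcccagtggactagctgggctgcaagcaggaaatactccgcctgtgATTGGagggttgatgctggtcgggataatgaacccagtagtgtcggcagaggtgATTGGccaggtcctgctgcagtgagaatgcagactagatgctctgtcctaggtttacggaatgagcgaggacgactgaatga
Slc25a25, chr2:32424017-32424316, minus strand: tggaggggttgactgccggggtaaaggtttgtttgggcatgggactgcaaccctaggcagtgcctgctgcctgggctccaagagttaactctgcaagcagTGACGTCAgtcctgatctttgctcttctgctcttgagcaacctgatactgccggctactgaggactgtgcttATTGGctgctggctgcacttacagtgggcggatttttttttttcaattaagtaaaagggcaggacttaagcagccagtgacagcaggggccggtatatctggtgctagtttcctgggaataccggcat
Slc25a36, chr9:97110992-97111291, minus strand: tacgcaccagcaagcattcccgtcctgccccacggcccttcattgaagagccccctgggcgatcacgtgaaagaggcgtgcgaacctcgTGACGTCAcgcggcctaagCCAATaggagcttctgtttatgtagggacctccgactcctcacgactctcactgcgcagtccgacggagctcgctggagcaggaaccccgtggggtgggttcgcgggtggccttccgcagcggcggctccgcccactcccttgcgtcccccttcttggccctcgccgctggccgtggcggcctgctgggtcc
Slc25a4, chr8:46211013-46211312, minus strand: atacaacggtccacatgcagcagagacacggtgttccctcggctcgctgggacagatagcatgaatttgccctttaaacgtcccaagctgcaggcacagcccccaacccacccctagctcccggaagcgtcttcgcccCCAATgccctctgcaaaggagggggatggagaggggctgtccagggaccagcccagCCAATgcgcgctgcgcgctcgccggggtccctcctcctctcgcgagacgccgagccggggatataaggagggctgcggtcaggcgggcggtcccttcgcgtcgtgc
Slc25a5, chrX:36795347-36795646, plus strand: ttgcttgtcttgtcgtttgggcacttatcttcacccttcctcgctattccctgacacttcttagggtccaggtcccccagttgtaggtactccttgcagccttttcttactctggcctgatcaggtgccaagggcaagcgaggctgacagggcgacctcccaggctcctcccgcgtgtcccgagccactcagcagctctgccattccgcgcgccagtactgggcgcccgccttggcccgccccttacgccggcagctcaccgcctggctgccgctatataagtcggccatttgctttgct
Slc25a3, chr10:91123918-91124217, minus strand: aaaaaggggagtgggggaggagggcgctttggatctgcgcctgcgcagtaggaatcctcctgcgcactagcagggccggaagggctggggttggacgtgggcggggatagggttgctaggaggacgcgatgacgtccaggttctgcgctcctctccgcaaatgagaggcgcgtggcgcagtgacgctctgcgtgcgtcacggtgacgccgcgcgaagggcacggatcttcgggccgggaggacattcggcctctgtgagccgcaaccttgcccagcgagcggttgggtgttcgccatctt

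A window was found for 35 of the 46 members, 45 windows in all. The cyclic AMP response element was in 2 of the 45 windows and in 1.79% of all 32851 promoter windows of that length. The motif AAGGTCA, bound by estrogen-related receptors, was in 1 member's window, that of Slc25a34, and in 4.72% of all windows. The core CGCATGCG of the NRF1 site was in 0 of the 45 windows and in 1.87% of all. A CCAAT box was in 22 of the 45 windows and in 37.4% of all. All motifs were searched on both strands, no motif searched is contained whole in another, and a match describes the letters only. The members' windows had a median GC content of 59.0% and 15 CG dinucleotides, against 52.7% and 7 over all windows. The tables give 1 level per gene, so the start used by Slc25a25 in these kidneys was not analysed here.

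The ADP/ATP carriers exchange matrix ATP for cytosolic ADP, and the phosphate carrier supplies the phosphate for ATP synthesis. All 3 members of this group that were tested rose in PAD4 knockout, with a median change of 1.92. Of all genes tested, 8.89% were called higher there. Slc25a4 measured 10.9, 20.1 and 22.2 FPKM in the wild-type kidneys, against 107.0, 56.6 and 65.3 in PAD4 knockout (2.05 ± 0.35 SE, adjusted p = 7.41e-04). Slc25a5 measured 34.7, 59.4 and 47.5 FPKM in the wild-type kidneys, against 293.7, 102.8 and 185.0 in knockout (1.92 ± 0.38 SE, adjusted p = 0.00208). Slc25a3 measured 22.3, 30.6 and 35.7 FPKM in the wild-type kidneys, against 121.9, 80.9 and 76.9 in knockout (1.62 ± 0.33 SE, adjusted p = 0.00246). For each of these genes every knockout library lay above every wild-type library, and library 1 of the knockout was the highest. The call of Slc25a5 ended once wild-type library 1 was left out (adjusted p = 0.0560).

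The tables were normalized separately, so levels are not compared between the sets. Of the same carriers, 2 rose in the labelled IL-33 knockout and 1 was not called, where 22.2% of all genes were called higher. Slc25a4 measured 59.7, 72.2 and 70.7 FPKM in the wild-type kidneys, against 136.1, 132.3 and 145.5 in the libraries labelled IL-33 knockout (1.02 ± 0.10 SE, adjusted p = 2.88e-04). Slc25a5 was the most abundant member, with 409.1, 377.7 and 400.4 FPKM in the wild-type kidneys against 525.9, 525.1 and 513.8 in the labelled knockout (0.40 ± 0.08 SE, adjusted p = 0.00706). Slc25a3 was at 150.1, 152.8 and 132.0 FPKM and at 163.5, 169.1 and 165.0, which missed the threshold (0.20 ± 0.09 SE, adjusted p = 0.115), although the groups did not overlap. Scaled by the median of ratios, the Slc25a5 call in this set was lost (adjusted p = 0.0994). The ratio of Slc25a4 to Slc25a5 was 0.146 to 0.191 in wild type and 0.252 to 0.283 in the labelled knockout. With 3 libraries a group, an exact permutation test of such a ratio cannot go below p = 0.10. In the PAD4 set this ratio overlapped between the groups, at 0.314 to 0.469 and 0.353 to 0.551. Of the 50-base words in Slc25a5 transcripts, 33.8% also occur in other genes, most often in the processed pseudogene Gm5560, so reads could have been split between them. Slc25a31, the testis ADP/ATP carrier, was at most 0.0550 FPKM in any library and was not tested.

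The ATP-Mg/phosphate carriers Slc25a23, Slc25a24 and Slc25a25 are opened by calcium and set the total adenine nucleotide content of the matrix. All 3 were tested in both comparisons. Slc25a25 measured 3.01, 5.39 and 4.28 FPKM in the wild-type kidneys, against 15.0, 8.31 and 10.0 in PAD4 knockout (1.20 ± 0.28 SE, adjusted p = 0.00648). In the IL-33 set it measured 32.5, 36.8 and 35.7 FPKM in the wild-type kidneys, against 4.83, 2.34 and 4.00 in the labelled knockout (-2.97 ± 0.20 SE, adjusted p = 6.21e-05). The groups did not overlap in either set, and they were ordered in opposite ways. The PAD4 call ended once wild-type library 1 was left out (adjusted p = 0.0666). The neighbouring gene Naif1 shares 4.82% of the exonic bases of Slc25a25 on the other strand, and its own change was 0.06 ± 0.15 SE in the IL-33 set. The PAD4 knockout libraries held Naif1 at 1.03, 0.843 and 0.795 FPKM, above the 0.313, 0.405 and 0.513 of their wild type (0.42 ± 0.17 SE, adjusted p = 0.0859).

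Slc25a24 fell in both comparisons. It measured 4.51, 6.33 and 8.82 FPKM in the wild-type kidneys, against 1.49, 3.69 and 1.78 in PAD4 knockout (-1.20 ± 0.28 SE, adjusted p = 0.00634). It measured 9.42, 6.30 and 11.1 FPKM in the wild-type kidneys of the IL-33 set, against 1.88, 1.33 and 2.22 in the labelled knockout (-1.81 ± 0.21 SE, adjusted p = 5.82e-04). The PAD4 call did not survive removal of wild-type library 3 (adjusted p = 0.0562), and with the colon and lung marker level as a covariate the PAD4 change was 0.15. Slc25a23 rose in the labelled IL-33 knockout, from 12.9 ± 1.83 to 22.4 ± 1.28 FPKM (SD, n = 3; adjusted p = 0.00218 by limma), and missed the threshold in PAD4 knockout (0.38 ± 0.27 SE, adjusted p = 0.369). The ratio of Slc25a25 to Slc25a23 thus stood at 2.54 to 2.97 in wild type of the IL-33 set and at 0.110 to 0.203 in the labelled knockout. In the PAD4 set the same ratio was 0.680 to 0.830 in wild type and 1.34 to 1.54 in knockout. Slc25a41, the short paralog without the calcium-binding part, was at most 0.0898 FPKM.

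Di- and tricarboxylate carriers feed and drain the citric acid cycle. The dicarboxylate carrier Slc25a10, which exchanges malate or succinate for phosphate, measured 24.2, 38.6 and 36.0 FPKM in the wild-type kidneys, against 100.6, 47.0 and 63.2 in PAD4 knockout (1.03 ± 0.35 SE, adjusted p = 0.0462). The IL-33 set gave the opposite order, and Slc25a10 measured 104.1, 132.4 and 106.8 FPKM in the wild-type kidneys, against 85.9, 73.8 and 69.6 in the labelled knockout (-0.57 ± 0.12 SE, adjusted p = 0.00938). The groups did not overlap in either set. The PAD4 call was lost without any one of wild-type libraries 1, 2 and 3 or knockout libraries 1 and 3, with adjusted p from 0.0555 (without wild-type library 2) to 0.212 (without wild-type library 1). It was kept in 7 of 16 alternatives, and was also lost with no filter, rescaling to the same sum, the replicate block and the marker covariate.

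The oxoglutarate/malate carrier Slc25a11, part of the malate-aspartate shuttle, measured 28.1, 36.1 and 33.2 FPKM in the wild-type kidneys of the IL-33 set, against 80.2, 78.2 and 77.5 in the labelled knockout (1.26 ± 0.11 SE, adjusted p = 1.56e-04). All 3 labelled knockout libraries lay above wild type and close together. In PAD4 knockout its change did not pass (0.56 ± 0.31 SE, adjusted p = 0.232). The ratio of Slc25a10 to Slc25a11 was 3.22 to 3.71 in wild type of the IL-33 set and 0.897 to 1.07 in the labelled knockout, and in the PAD4 set 2.31 to 2.73 and 2.99 to 3.70. Slc25a11 shares 8.92% of its exonic bases with Rnf167 on the other strand, and Rnf167 changed by -0.12 ± 0.10 SE (adjusted p = 0.378). The oxodicarboxylate carrier Slc25a21, which serves lysine and tryptophan breakdown, is a low member. It rose in the labelled IL-33 knockout, from 0.834 ± 0.302 to 2.65 ± 0.0951 FPKM (SD, n = 3; limma adjusted p = 0.00144). In the PAD4 libraries it measured 0.262, 0.288 and 0.173 FPKM in wild type and 1.74, 0.439 and 1.13 in knockout. Its wild-type mean lay below the filter of 0.5 FPKM, so it was tested only because its knockout libraries were higher, and it was not tested without knockout library 1. Its PAD4 values are therefore given as a description. The citrate carrier Slc25a1 was not called in either set (0.05 ± 0.28 and 0.04 ± 0.09 SE).

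**Figure D3:**
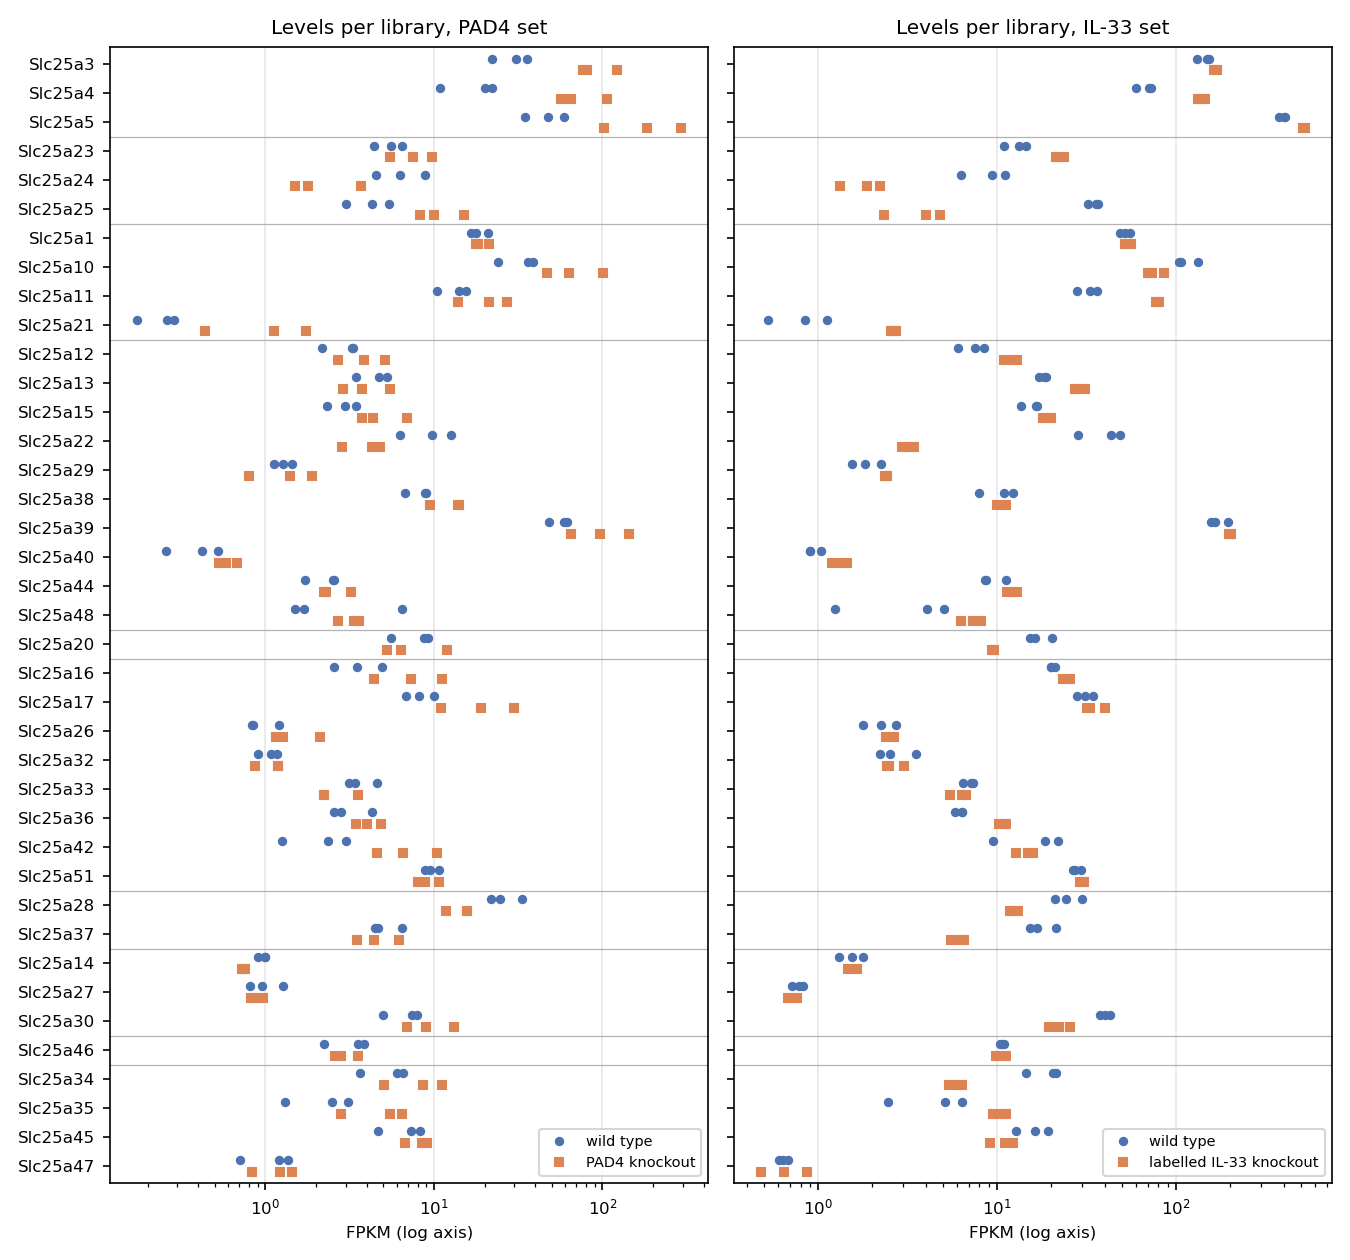
FPKM of the members tested in at least 1 comparison (1 left out), per library (circles, wild type; squares, knockout; log axis), with grey lines between roles. Slc25a5, Slc25a39 and Slc25a3 are the highest members of the IL-33 set, and Slc25a22 and Slc25a25 show its widest gaps.

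Among the amino acid and glutathione carriers, 9 were tested in the PAD4 set, of which 0 rose and 1 fell by limma (at an unadjusted p below 0.05, Slc25a15 and Slc25a39 were higher), and 10 in the IL-33 set, of which 3 rose and 1 fell. Of all genes tested, 17.7% were called in the PAD4 set and 39.1% in the IL-33 set. The carrier of this group that fell in both was Slc25a22, which imports glutamate with a proton. It measured 9.74, 6.32 and 12.6 FPKM in the wild-type kidneys, against 4.28, 4.82 and 2.87 in PAD4 knockout (-1.06 ± 0.28 SE, adjusted p = 0.0139). Across the IL-33 set it measured 43.5, 48.7 and 28.3 FPKM in the wild-type kidneys, against 3.33, 2.95 and 3.46 in the labelled knockout (-3.24 ± 0.19 SE, adjusted p = 3.94e-05). The groups did not overlap in either set, and the lowest wild-type library of the IL-33 set stood far above all 3 labelled knockout libraries. This was the one change in the family that kept its call under all 16 alternative settings of its comparison. The PAD4 call did not survive removal of wild-type library 1 (adjusted p = 0.0825), wild-type library 3 (adjusted p = 0.0837) or knockout library 3 (adjusted p = 0.0691). Its paralog Slc25a18 was at most 0.571 FPKM and was not tested.

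The aspartate/glutamate carriers Slc25a12 and Slc25a13 are the calcium-sensing limb of the malate-aspartate shuttle. Both rose in the labelled IL-33 knockout, Slc25a12 from 7.38 ± 1.22 to 12.1 ± 1.04 FPKM (SD, n = 3; limma adjusted p = 0.00713) and Slc25a13 from 18.1 ± 0.812 to 28.7 ± 2.11 (SD, n = 3; limma adjusted p = 0.00145). In that set 22.2% of all genes tested were called higher. Neither carrier passed in PAD4 knockout (0.30 ± 0.25 and -0.14 ± 0.26 SE). Their ratio, Slc25a12 to Slc25a13, was nevertheless 0.630 to 0.682 in wild type of the PAD4 set and 0.926 to 1.03 in knockout, without overlap. It overlapped in the IL-33 set, at 0.355 to 0.454 and 0.394 to 0.471.

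Slc25a39, which imports glutathione, was the most abundant member in wild type of the PAD4 set and was not called in either comparison. It measured 48.5, 59.1 and 62.0 FPKM in the wild-type kidneys, against 143.2, 65.1 and 97.5 in PAD4 knockout (0.77 ± 0.34 SE, adjusted p = 0.131). It measured 158.2, 195.6 and 165.1 FPKM in the wild-type kidneys of the IL-33 set, against 203.8, 203.4 and 197.1 in the labelled knockout (0.23 ± 0.10 SE, adjusted p = 0.113). In both sets the groups did not overlap, yet the changes did not pass the test. Its paralog Slc25a40 was tested in the IL-33 set only, at 0.947 ± 0.0766 and 1.33 ± 0.129 FPKM (SD, n = 3; limma adjusted p = 0.0979). Slc25a48, for which choline transport has been described, measured 1.25, 4.06 and 5.08 FPKM in the wild-type kidneys of the IL-33 set, against 8.17, 7.36 and 6.34 in the labelled knockout (1.01 ± 0.34 SE, adjusted p = 0.0485). Without wild-type library 2 or any labelled knockout library that call was lost, with adjusted p from 0.0606 (without wild-type library 2) to 0.131 (without labelled knockout library 1). It was kept in 8 of 16 alternatives, and was also lost with a pseudocount of 0.1, no filter, no trend and the marker covariate. The remaining carriers of this group were not called: the ornithine carrier Slc25a15, the basic amino acid carrier Slc25a29, the glycine carrier Slc25a38 and the branched-chain amino acid carrier Slc25a44. Their changes ran from 0.03 to 0.59 in PAD4 knockout and from 0.06 to 0.33 in the labelled IL-33 knockout. The basic amino acid carrier Slc25a2 was at most 0.417 FPKM.

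Slc25a20 carries acylcarnitines into the matrix for fatty acid oxidation. It fell from 15.3, 20.4 and 16.2 FPKM in wild type of the IL-33 set to 9.60, 9.41 and 9.54 in the labelled knockout (-0.79 ± 0.12 SE, adjusted p = 0.00181), with no overlap. In PAD4 knockout it did not pass (-0.04 ± 0.30 SE, adjusted p = 0.957). The enzymes on either side of it, Cpt1a and Cpt2, which make and unmake acylcarnitines, also fell in the labelled IL-33 knockout. Cpt1a measured 66.3, 68.2 and 59.2 FPKM in the wild-type kidneys, against 37.1, 40.3 and 34.8 (-0.77 ± 0.10 SE, adjusted p = 8.03e-04). Cpt2 was at 69.3, 113.1 and 93.9 FPKM and at 47.2, 46.8 and 47.9 (-0.92 ± 0.17 SE, adjusted p = 0.00400).

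Of the 9 nucleotide, coenzyme and vitamin carriers tested in each set, 3 rose and 0 fell in PAD4 knockout, and 3 rose and 0 fell in the labelled IL-33 knockout by limma. Of all genes tested, 17.7% were called in the PAD4 set (8.89% higher) and 39.1% in the IL-33 set (22.2% higher). None of these carriers was lower at an unadjusted p below 0.05 in either set. Slc25a42, a coenzyme A carrier, measured 1.26, 3.00 and 2.35 FPKM in the wild-type kidneys, against 10.4, 4.61 and 6.53 in PAD4 knockout (1.33 ± 0.29 SE, adjusted p = 0.00372). Its levels overlapped in the IL-33 set, at 9.50, 22.1 and 18.5 FPKM and at 16.0, 12.8 and 15.0 (-0.11 ± 0.27 SE, adjusted p = 0.773). Slc25a16 rose by 0.25 ± 0.08 SE in the labelled IL-33 knockout (adjusted p = 0.0455) and was not called in PAD4 knockout (0.84 ± 0.30 SE, adjusted p = 0.0568). Slc25a17, the peroxisomal carrier of coenzyme A and FAD, measured 6.84, 8.16 and 9.98 FPKM in the wild-type kidneys, against 29.8, 11.0 and 19.0 in PAD4 knockout (1.08 ± 0.33 SE, adjusted p = 0.0286), and was not called in the IL-33 set (0.17 ± 0.12 SE). The PAD4 call of Slc25a42 did not survive removal of wild-type library 1 (adjusted p = 0.0624). That of Slc25a17 did not survive removal of wild-type library 1 (adjusted p = 0.163), wild-type library 3 (adjusted p = 0.0709) or knockout library 1 (adjusted p = 0.111). It was kept in 10 of 16 alternatives, and was also lost with no filter, the replicate block and the marker covariate. The Slc25a16 call was lost without any library of the IL-33 set but wild-type library 2, with adjusted p from 0.0674 (without wild-type library 1) to 0.179 (without labelled knockout library 1). It was kept in 5 of 16 alternatives, and was also lost under 3 of 4 other scalings, no trend, the replicate block and the marker covariate.

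The pyrimidine nucleotide carrier Slc25a36, whose promoter holds the cyclic AMP response element printed above, rose from 6.18 ± 0.313 to 10.7 ± 0.536 FPKM in the labelled IL-33 knockout (SD, n = 3; limma adjusted p = 0.00113). Slc25a25, the other member with that element, fell there, so the carriers sharing the letters changed in opposite directions. The pyrimidine nucleotide carrier Slc25a33, the NAD carrier Slc25a51, the folate and FAD carrier Slc25a32 and the S-adenosylmethionine carrier Slc25a26 were called in neither set.

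The iron carriers, the mitoferrins Slc25a28 and Slc25a37, bring iron to the matrix for heme and iron-sulfur clusters. Both fell in the labelled IL-33 knockout. Slc25a37 measured 21.3, 15.3 and 16.7 FPKM in the wild-type kidneys, against 6.31, 5.51 and 6.54 in the labelled knockout (-1.39 ± 0.14 SE, adjusted p = 3.12e-04). Slc25a28 was at 30.0, 24.3 and 21.3 FPKM and at 12.2, 13.1 and 11.9 (-0.95 ± 0.13 SE, adjusted p = 0.00121). Neither pair of groups overlapped. In that set 16.8% of all genes tested were called lower, and 54.6% had groups that did not overlap. In PAD4 knockout Slc25a28 measured 24.6, 21.8 and 33.3 FPKM in the wild-type kidneys, against 15.6, 15.6 and 11.8 in knockout, without overlap, and did not pass (-0.83 ± 0.30 SE, adjusted p = 0.0598). Slc25a37 did not pass there either (-0.13 ± 0.26 SE, adjusted p = 0.789). The ratio of Slc25a37 to Slc25a28 was 0.191 to 0.205 in wild type of the PAD4 set and 0.284 to 0.396 in knockout, and 0.628 to 0.784 and 0.421 to 0.549 in the IL-33 set.

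Of the carriers related to the uncoupling proteins, Slc25a30 fell from 40.3, 37.8 and 43.0 FPKM to 19.4, 25.7 and 22.3 in the labelled IL-33 knockout (-0.82 ± 0.12 SE, adjusted p = 0.00141). It was not called in PAD4 knockout (0.44 ± 0.29 SE, adjusted p = 0.325). Slc25a14 and Slc25a27 stayed at or below 1.80 FPKM and were called in neither set. Slc25a46, an outer membrane member that takes part in mitochondrial fission and cristae shape, changed by -0.06 ± 0.24 SE and -0.03 ± 0.09 SE, neither called.

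The members with an unsettled or little known substrate included Slc25a34, Slc25a35, Slc25a45 and Slc25a47. Slc25a34 measured 14.6, 21.5 and 20.6 FPKM in the wild-type kidneys of the IL-33 set, against 5.99, 5.42 and 6.39 in the labelled knockout (-1.51 ± 0.15 SE, adjusted p = 3.30e-04), with no overlap. In PAD4 knockout it measured 3.64, 6.54 and 6.07 FPKM in the wild-type kidneys, against 11.2, 8.63 and 5.06 in knockout, with overlap (0.51 ± 0.30 SE, adjusted p = 0.262). Slc25a35 measured 2.47, 6.39 and 5.16 FPKM in the wild-type kidneys of the IL-33 set, against 9.54, 11.2 and 10.7 in the labelled knockout (1.09 ± 0.26 SE, adjusted p = 0.0134). This call was lost without the filter on low levels (adjusted p = 0.0523). In the PAD4 set it was called (0.83 ± 0.28 SE, adjusted p = 0.0483), but its groups overlapped, at 1.30 to 3.08 and 2.79 to 6.46 FPKM. That call did not survive removal of wild-type library 1 (adjusted p = 0.250), wild-type library 3 (adjusted p = 0.110), knockout library 1 (adjusted p = 0.137) or knockout library 3 (adjusted p = 0.114). It was kept in 4 of 16 alternatives, and was also lost with a pseudocount of 0.1, no filter, 3 of 4 other scalings, no trend, the replicate block and the marker covariate. Rangrf overlaps 31.3% of the exonic bases of Slc25a35 on the other strand. Its levels were 1.15 to 2.15 FPKM in wild type and 1.64 to 2.32 in the labelled IL-33 knockout, and its change did not pass (0.15 ± 0.17 SE, adjusted p = 0.524). Slc25a45 fell from 16.1 ± 3.34 to 10.9 ± 1.58 FPKM in the labelled IL-33 knockout (SD, n = 3; limma adjusted p = 0.0411). That call was lost without any library of the set but wild-type library 1, with adjusted p from 0.0578 (without labelled knockout library 3) to 0.137 (without labelled knockout library 2). It was kept in 6 of 16 alternatives. Other losses came with no filter, rescaling to the same sum with or without the mitochondrial genome, the replicate block and the marker covariate. Slc25a47, a carrier of the liver, was at most 1.44 FPKM.

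Low members account for the rest. Slc25a2, Slc25a18, Slc25a31, Slc25a41, Slc25a43 and Slc25a53 were under the filter in both sets and Slc25a40 in the PAD4 set, so 7 and 6 of the 46 were not tested. Their levels were 0 to 0.676 FPKM in the PAD4 set and 0 to 0.589 in the IL-33 set. The family was dominated by a few genes. Slc25a5 made up 12.7% of the summed FPKM of the family in wild type of the PAD4 set and 25.3% in PAD4 knockout, and 27.9% and 32.7% in the IL-33 set. In wild type of the PAD4 set the order of means was Slc25a39, Slc25a5, Slc25a10, Slc25a3 and Slc25a28, from 56.5 ± 7.12 to 26.6 ± 6.00 FPKM (SD, n = 3), where neighbours lay within their summed SDs. In PAD4 knockout the order was Slc25a5, Slc25a39, Slc25a3, Slc25a4 and Slc25a10, from 193.8 ± 95.8 to 70.3 ± 27.4 FPKM, and neighbours again lay within their summed SDs. In wild type of the IL-33 set it was Slc25a5, Slc25a39, Slc25a3, Slc25a10 and Slc25a4, from 395.7 ± 16.2 to 67.5 ± 6.81 FPKM, and of these neighbours only Slc25a39 and Slc25a3 lay within their summed SDs. In the labelled IL-33 knockout Slc25a4 took the fourth place and Slc25a11 the fifth, with Slc25a10 sixth at 76.4 ± 8.46 FPKM, not apart from Slc25a11 at 78.7 ± 1.36. The summed family took 0.0909% to 0.132% of the FPKM of nuclear genes in wild type and 0.173% to 0.314% in PAD4 knockout, and 0.461% to 0.483% and 0.549% to 0.560% in the IL-33 set. In neither set did the groups overlap.

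The change in one knockout was set against the change in the other for the 39 members tested in both tables, as a contrast over all 12 libraries. It was called for 9 members, or 23.1%, against 12.4% of the 13010 genes tested in both (6.23% higher and 6.18% lower). In all 9 the PAD4 change lay above the IL-33 change. None lay below by limma, and at an unadjusted p below 0.05 there were 2, Slc25a11 and Slc25a13. Over all genes the contrast called 811 higher and 804 lower, and 1877 and 1228 after scaling by the median of ratios. Under that scaling 1 member lay below, and 2 after quantile normalization.

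The largest difference was that of Slc25a25, at 4.17 ± 0.35 SE (adjusted p = 2.11e-05). It was followed by Slc25a22 at 2.19 ± 0.35 SE (adjusted p = 0.00138), a gene that fell in both sets and further in the labelled IL-33 knockout. Slc25a34 differed by 2.01 ± 0.36 SE (adjusted p = 0.00255) and Slc25a10 by 1.60 ± 0.37 SE (adjusted p = 0.0116). For the carriers that rose more in PAD4 knockout, Slc25a5 differed by 1.52 ± 0.43 SE (adjusted p = 0.0313), Slc25a3 by 1.43 ± 0.31 SE (adjusted p = 0.00852) and Slc25a42 by 1.44 ± 0.43 SE (adjusted p = 0.0419). The other two were Slc25a30 at 1.26 ± 0.31 SE (adjusted p = 0.0166) and Slc25a37 at 1.25 ± 0.28 SE (adjusted p = 0.00995). Slc25a4 did not differ past the threshold (1.02 ± 0.38 SE, adjusted p = 0.0960), nor did Slc25a24 (0.60 ± 0.38 SE, adjusted p = 0.327) or Slc25a28 (0.12 ± 0.28 SE, adjusted p = 0.827). The knockout and the batch cannot be told apart in this contrast, and it pools the spread of both sets, which was larger in the PAD4 set (median SE of the members 0.281 against 0.122). The differences of Slc25a5 and Slc25a42 were each lost without any one of 9 libraries, with adjusted p between 0.0532 and 0.0998. That of Slc25a5 was kept only without wild-type library 2 or knockout library 1 or 2 of the PAD4 set, and that of Slc25a42 only without wild-type or knockout library 2 of the PAD4 set or wild-type library 1 of the IL-33 set. That of Slc25a30 was lost without labelled IL-33 knockout library 1 (adjusted p = 0.0541).

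**Figure D4:**
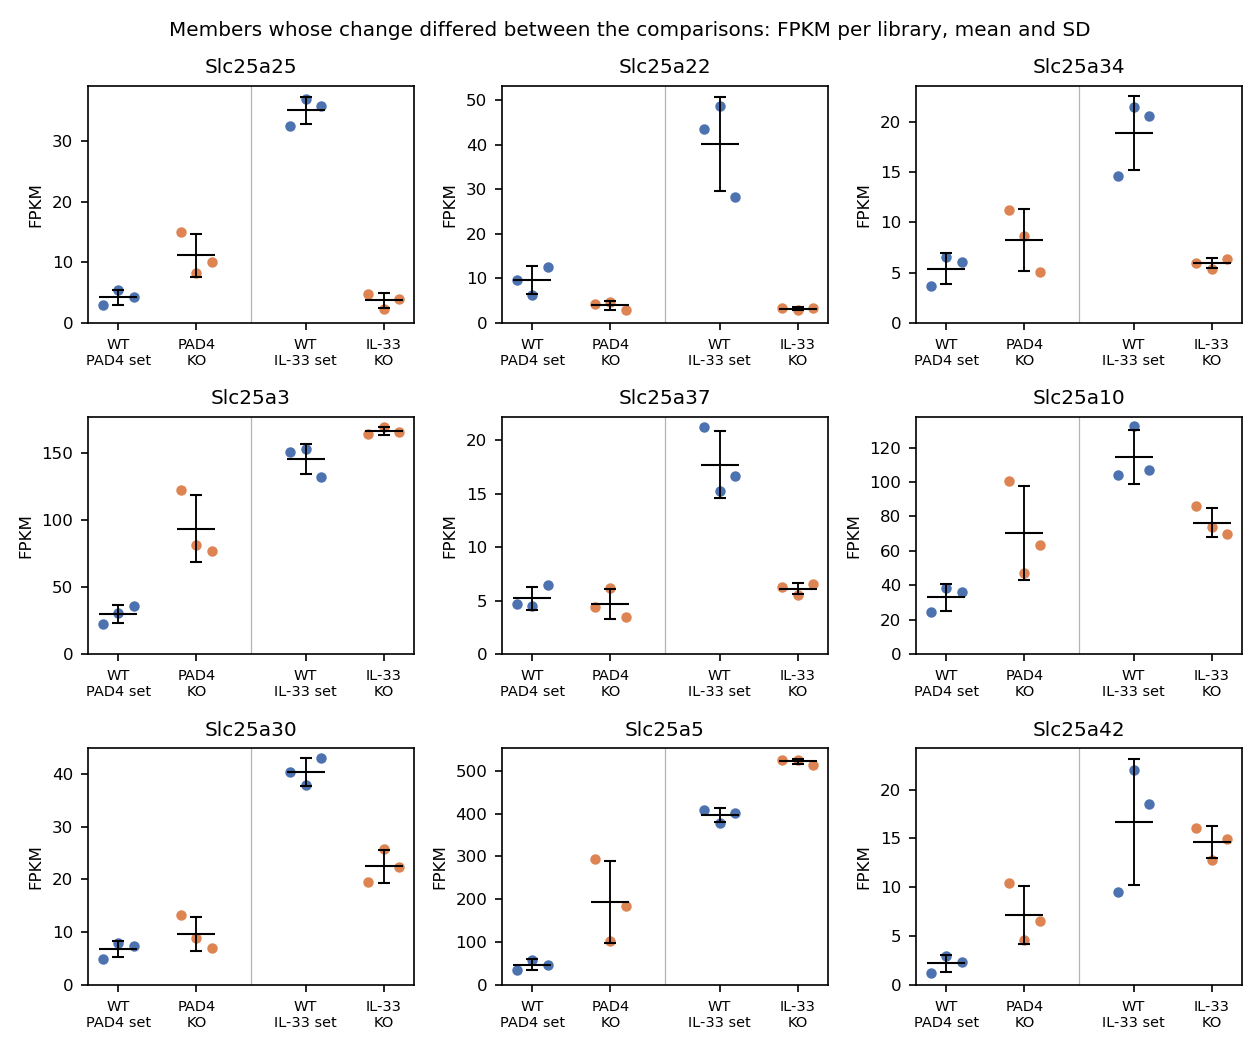
FPKM per library of the 9 members whose change differed between the comparisons (blue, wild type; orange, knockout), with the mean and SD as black bars, n = 3 each. Slc25a25 rises in the PAD4 set and falls in the IL-33 set, while Slc25a22 falls in both.

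Genes that work beside the carriers were followed as lists. Of all genes tested, 8.89% were called higher and 8.79% lower in the PAD4 set, and 22.2% and 16.8% in the IL-33 set. Of 12 tested enzymes that make or use the carried metabolites, 3 rose and 0 fell in PAD4 knockout (limma; 0 were lower at an unadjusted p below 0.05), and 4 rose and 5 fell in the labelled IL-33 knockout. Malate dehydrogenase 1, the cytosolic enzyme of the malate-aspartate shuttle, rose in both. Mdh1 measured 7.28, 11.6 and 9.87 FPKM in the wild-type kidneys, against 264.6, 88.2 and 180.4 in PAD4 knockout (3.96 ± 0.37 SE, adjusted p = 4.82e-06), and it changed by 0.74 ± 0.10 SE in the labelled IL-33 knockout (adjusted p = 0.00106). Glutamate dehydrogenase, which uses glutamate in the matrix, rose in PAD4 knockout and fell in the labelled IL-33 knockout. Glud1 was at 12.8, 18.4 and 12.9 FPKM and at 91.5, 45.1 and 42.6 in the PAD4 set (1.88 ± 0.34 SE, adjusted p = 0.00114). Glud1 in the IL-33 set measured 255.6, 226.5 and 225.8 FPKM in the wild-type kidneys, against 102.6, 101.9 and 95.1 in the labelled knockout (-1.23 ± 0.09 SE, adjusted p = 8.53e-05). Glud1 and the glutamate carrier Slc25a22 thus fell together in the IL-33 set and changed in opposite directions in the PAD4 set.

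Of 20 other transport genes of mitochondria, 3 rose and 1 fell in PAD4 knockout, and 12 rose and 1 fell in the labelled IL-33 knockout. For this list and those below, the shares of all genes were 8.89% higher and 8.79% lower in the PAD4 set. They were 22.2% and 16.8% in the IL-33 set. Vdac1, the outer membrane channel through which carrier substrates pass, rose in both, by 1.62 ± 0.33 SE (adjusted p = 0.00270) and 0.60 ± 0.09 SE (adjusted p = 0.00194). The 1 counted as fallen in PAD4 knockout was Mcub, an inhibitory subunit of the calcium uniporter. It measured 0.787, 1.11 and 2.38 FPKM in wild type and 0.358, 0.513 and 0.470 in knockout. Its knockout mean of 0.447 FPKM lay below the filter of 0.5, so it was tested only because its wild-type libraries were higher. Its PAD4 values are therefore given as a description. Of the carrier import genes, Timm9 rose in PAD4 knockout (1.14 ± 0.26 SE, adjusted p = 0.00600), the 1 call among 9 tested. In the IL-33 set 1 of 10 rose and 2 fell, Timm10 by -0.76 ± 0.08 SE (adjusted p = 3.87e-04) and Tomm20 by -0.36 ± 0.10 SE (adjusted p = 0.0274). Of the genes with the carrier fold but another name, Ucp2 measured 90.2, 100.3 and 81.1 FPKM in the wild-type kidneys of the IL-33 set, against 19.5, 22.5 and 21.9 in the labelled knockout (-2.04 ± 0.11 SE, adjusted p = 2.50e-05). In PAD4 knockout its change was 0.01 ± 0.34 SE.

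In the PAD4 set the level of colon and lung markers moved with the groups. In the IL-33 set only 3 colon markers and 1 lung marker passed the filter. Of these, Lgals4 was called lower, and Fcgbp and Guca2a were not called. Fcgbp passed only through wild-type library 3, at 5.06 FPKM (means 1.73 in wild type and 0.238 in the labelled knockout). The lung marker Ager passed only through its wild-type libraries (means 2.39 and 0.450 FPKM). The covariate used the tested markers only, against 13 colon and 8 lung markers in the PAD4 set. A fit with their mean log2 level as a covariate called 0 members higher and 0 lower in the PAD4 set, and 0.465% of all genes (limma; at an unadjusted p below 0.05, Slc25a4 was higher and none was lower). In that fit the changes of Slc25a4 and Slc25a3 were 1.73 and 1.43, and the median SE of the members was 0.648 against 0.281 without the covariate. In the IL-33 set the same fit called 0 members higher and 1 lower, Slc25a22 (10 were higher and 4 lower at an unadjusted p below 0.05), and 1.41% of all genes. There the median SE was 0.356 against 0.122. All 22 changes called without the covariate kept their sign with it, and 16 were at least as large, among them Slc25a11 at 1.51 and Slc25a4 at 1.33. Of the 12 called in the PAD4 set, 9 kept their sign and 0 were as large. With no filter on low levels, limma called 0 of 32199 genes in the PAD4 set, and 14 members were higher and 3 lower at an unadjusted p below 0.05. For this fit and the covariate fits, the share of all genes at an unadjusted p below 0.05 was not counted. The count of members called higher in PAD4 knockout was 2 without wild-type library 1, 6 without wild-type library 3 and 6 without knockout library 1. Of all genes, 2.49%, 5.86% and 6.09% were called higher in these fits, against 8.89% with all 6 libraries. The count called lower was 1 without wild-type library 1 or knockout library 3, and 0 without wild-type library 3. Of all genes, 5.05%, 6.14% and 3.74% were called lower in these fits, against 8.79% with all 6 libraries.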

How the data were processed

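Whole-kidney RNA of 12 mice in 4 groups of 3 was sequenced, and the authors deposited 1 table of FPKM values per gene for each set, per the file headers. Per the submitters' processing notes, the tools included FastQC, cutadapt, HISAT2, StringTie, DESeq2 and edgeR; the genome build, annotation and strand setting of the counting were not given in these sources. Depth is unknown, since low FPKM values do not fall on steps of whole reads (the fullest bin held at most 2.78% of the low genes), so no counting interval is given. Symbols and biotypes came from GENCODE M21 by Ensembl identifier, and 30212 and 29690 genes matched. Promoter windows came from RefSeq GRCm38.p6.

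Each set was fitted with limma 3.58.1 in R 4.3.3 on log2(FPKM + 1), with a trended prior, on genes with a mean of at least 0.5 FPKM over the 6 libraries. On this scale, log2(FPKM + 1), changes of low genes come out smaller than they are. P-values are two-sided and adjusted by Benjamini-Hochberg over all genes tested. The difference contrast used all 12 libraries. The scripts were tested on simulated data. The members and lists were chosen with earlier results of these data known. Values per library are given for members called in a comparison whose groups do not overlap (up to the 10 largest changes), for the 5 highest members of each table, for the 5 largest differences, and for a few others chosen after their values were seen. Of these, 1 member is not reported here by name or in the plots of members; the counts include it. Of the genes beside the carriers, up to 3 with the smallest p of each list are named, and Cpt1a, Cpt2, Mcub and Tomm20 were added after their values were seen. Alternatives were another pseudocount (0.1), no filter or one of 2 FPKM, 4 other scalings, no trend, the replicate block, a covariate of colon and lung marker level, and leaving out each library. Shared 50-base words and overlapping exons of the members were counted in GENCODE M21.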

Additional observations from a re-analysis of the deposited data

Results flagged for a closer look

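The change in PAD4 knockout and the change in the labelled IL-33 knockout differed by the limma contrast over all 12 libraries for 9 members. The differences, PAD4 minus IL-33 on the log2(FPKM + 1) scale, were 4.17 for Slc25a25, 2.19 for Slc25a22, 2.01 for Slc25a34, 1.60 for Slc25a10, 1.52 for Slc25a5, 1.44 for Slc25a42, 1.43 for Slc25a3, 1.26 for Slc25a30 and 1.25 for Slc25a37. Each knockout was processed in its own batch, so the difference of batch and the difference of knockout cannot be told apart. With the colon and lung marker level as a covariate, none of the 9 differences was called by limma, and those of Slc25a25, Slc25a22 and Slc25a37 were at an unadjusted p below 0.05.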

How the results depend on the processing

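Of the 22 changes called in the IL-33 set, 20 or more kept their call under another pseudocount, a filter of 2 FPKM (21 of the 21 that could be tested), each of the 4 scalings, no trend and the replicate block, and 19 with no filter. With the colon and lung marker level as a covariate, 0 members were called higher and 1 lower there (12 and 10 otherwise), 0 higher and 0 lower in the PAD4 set (10 and 2), and 0 differences (9). That fit called 1.41% of all genes in the IL-33 set and 0.465% in the PAD4 set, and the median SE of the members rose to 0.356 and 0.648. Its covariate rested on 3 colon markers and 1 lung marker in the IL-33 set, of which Fcgbp and Ager passed the filter only through wild type. In that fit the PAD4 changes of Slc25a17, Slc25a21 and Slc25a24 reversed, to -0.129, -0.274 and 0.15, and the difference of Slc25a42 to -0.055. Without a filter the PAD4 set gave 0 higher and 0 lower; the cause was not tested. Differences called lower numbered 0, and 1 after median-of-ratios scaling and 2 after quantile normalization. Leaving out each library gave 2 to 13 higher and 0 to 2 lower in the PAD4 set, 10 to 14 higher and 9 to 11 lower in the IL-33 set, and 6 to 11 higher and 0 to 1 lower differences. Over these fits, 2.49% to 12.7% of all genes were called higher and 3.74% to 12.6% lower in the PAD4 set. The shares were 14.3% to 27.0% and 10.8% to 18.3% in the IL-33 set, and 4.02% to 7.94% and 4.10% to 8.72% for the differences.

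Same-numbered libraries of the knockout and wild-type groups showed no clear common deviation (correlations -0.0159, -0.113 and -0.146 in the PAD4 set, -0.0144, 0.134 and -0.00166 in the IL-33 set). Differently numbered libraries gave -0.129 to 0.232 in the PAD4 set and -0.125 to 0.13 in the IL-33 set. With 3 libraries a group, these correlations cannot decide whether same-numbered libraries were paired. With the replicate block the counts were 7 higher and 2 lower in the PAD4 set, 11 higher and 9 lower in the IL-33 set, and 9 higher and 0 lower differences. That fit called 6.80% of all genes higher and 7.39% lower in the PAD4 set. The shares were 21.1% and 15.6% in the IL-33 set, and 6.75% and 7.23% for the differences. The 3 animals per group and unknown depth limit all values.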

Other observations

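Ucp1, the uncoupling protein of brown fat and a carrier-fold gene outside the naming rule, was at 80.0 FPKM in PAD4 knockout library 3 and at most 3.04 FPKM in the other 5 libraries of that set. The brown fat markers summed to 91.2 FPKM in that library and to at most 3.93 in the others.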
